A study of Homo sapiens with 13 samples.

Results

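The genes that make, sense and break down prostaglandins were followed in hFOB osteoblasts. The set held 10 of the 43836 genes counted: PLA2G4A and PLA2G3, which release arachidonic acid, PTGS1 and PTGS2, which encode the cyclooxygenases, PTGES and PTGIS, which encode terminal synthases, PTGER2, PTGER3 and PTGER4, which encode receptors, and HPGD, which encodes the main inactivating enzyme. They were found by symbol among the Ensembl identifiers of the count table, and all 10 had a row. The set was chosen by the levels of PTGES, which moved in opposite directions under RES and POG. PTGES is therefore described and not tested in the 5 comparisons that use RES or POG libraries. A filter on low counts kept 8 members, each with reads in every library, and removed PTGER3 and HPGD.

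Messenger RNA was sequenced from the hFOB line, a single immortalized human fetal osteoblast line, so no donor other than that of the line is represented. The labels placed 13 samples in 5 groups, and 12 libraries were analysed here because DEG replicate 3 had no column. Positive controls (PC, n = 2) were grown with 10% fetal bovine serum (FBS). Negative controls (NC, n = 2) were grown without FBS. Both control groups received the DMSO vehicle per the study's methods. Per the same methods, RES (resveratrol, a stilbene, n = 3) and POG (peonidin-3-O-glucoside, an anthocyanin, n = 3) were given to serum-starved cells. DEG (n = 2) names another treated group, and the labels leave that abbreviation unexplained. The treatment labels of RES, POG and DEG give no serum level, and the study's methods name only RES and POG as compounds. A difference in serum could not be told apart from the treatment in the DEG group. The labelled protocol lists delphinidin-3-glucoside, peonidin-3-glucoside and resveratrol, all at 1 mcg/ml. The libraries of a group were not stated to be separate cultures, so the tests measure the spread between these libraries, which may be technical.

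Prostaglandins are short-lived lipid signals. A phospholipase A2 frees arachidonic acid from membranes, a cyclooxygenase turns it into prostaglandin H2, and terminal synthases convert that into prostaglandin E2, prostacyclin and their relatives. Cells then sense prostaglandin E2 through the EP receptors, of which EP2 and EP4 raise cyclic AMP, and remove it by oxidation. In bone, osteoblasts are a major source of prostaglandin E2, which acts on both bone formation and bone resorption.

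PTGES lies at chr9:129738331-129753042 on the minus strand of hg38 and PTGS2 at chr1:186671791-186680922 on the minus strand. PTGER2 lies at chr14:52314305-52328598 and PTGER4 at chr5:40679915-40693735, both on the plus strand. All are protein-coding genes. These spans are those of GENCODE v44. The 250 bases before the RefSeq start of these genes are shown because their messages carried the differences described below. RefSeq and GENCODE starts can differ. The PTGS2 stretch lies wholly inside the GENCODE span of the gene, and the end of the PTGER2 stretch runs into its span. They are RefSeq sequences of GRCh38.p14, written 5′ to 3′ on the strand of the gene, from chr9:129753043-129753292, chr1:186680424-186680673, chr14:52314062-52314311 and chr5:40679665-40679914 in the order printed. Capitals mark every match, on either strand, to the TATA box TATAAA, the GC box GGGCGG, the cyclic AMP response element half-site CGTCA, the EGR1 site GCGTGGGCG, the AHR core GCGTG and the E-box CACGTG.
PTGES: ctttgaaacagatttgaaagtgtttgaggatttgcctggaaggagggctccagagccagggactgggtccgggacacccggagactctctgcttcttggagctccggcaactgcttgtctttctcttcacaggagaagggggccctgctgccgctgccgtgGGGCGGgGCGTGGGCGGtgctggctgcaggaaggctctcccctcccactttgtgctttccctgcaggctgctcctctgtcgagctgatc
PTGS2: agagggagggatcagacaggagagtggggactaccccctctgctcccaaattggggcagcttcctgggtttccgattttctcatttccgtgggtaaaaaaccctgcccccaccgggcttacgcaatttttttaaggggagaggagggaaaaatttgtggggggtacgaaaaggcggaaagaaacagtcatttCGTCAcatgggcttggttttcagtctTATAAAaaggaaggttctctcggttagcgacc
PTGER2: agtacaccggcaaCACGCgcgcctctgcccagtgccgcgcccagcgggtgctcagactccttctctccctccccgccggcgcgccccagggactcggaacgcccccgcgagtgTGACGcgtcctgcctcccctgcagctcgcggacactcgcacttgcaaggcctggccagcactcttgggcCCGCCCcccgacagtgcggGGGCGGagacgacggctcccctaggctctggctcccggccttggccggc
PTGER4: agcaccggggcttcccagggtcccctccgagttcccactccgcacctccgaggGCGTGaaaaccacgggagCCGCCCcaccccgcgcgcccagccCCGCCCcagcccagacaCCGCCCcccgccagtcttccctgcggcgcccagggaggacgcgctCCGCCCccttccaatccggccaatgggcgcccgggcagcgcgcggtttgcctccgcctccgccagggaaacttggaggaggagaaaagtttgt

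The PTGES promoter held no TATA box. It held GC boxes at positions -89 to -84 and -78 to -73, counted back from the base before the start, and an EGR1 site at -82 to -74 that overlaps the second GC box and contains the AHR core. That EGR1 site was searched for after the sequence had been seen, and 0.72% of 35116 RefSeq promoters of this length hold it. PTGS2 carried a TATA box at -32 to -27 and a cyclic AMP half-site at -58 to -54, which 10.7% and 21.2% of all promoters hold. The PTGER2 promoter also had a half-site, at -137 to -133, with 2 GC boxes, while PTGER4 had 4 GC boxes and no half-site. GC boxes occur in 42.6% of all promoters, the AHR core in 32.2% and the E-box in 6.34%. Of the 10 members, 7 had a RefSeq promoter entry, and PTGIS, PTGER3 and PLA2G3 had none. These matches describe the sequence only.

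The libraries held between 38464619 and 51416358 counted reads. Levels are given as CPM, that is, reads scaled to a common library size after TMM normalisation. COL1A1 was at 2463 to 2869 CPM and RUNX2, an early osteoblast transcription factor, at 44.3 to 51.6 CPM in every library, while SP7, a transcription factor of osteoblast commitment, and IBSP, a matrix gene of late osteoblasts, reached at most 0.181 and 0.0224 CPM. BGLAP, another late gene, averaged 1.25 CPM. In all, 7 of 9 osteoblast markers averaged over 1 CPM. The PC libraries differed from each other more than the libraries of any other group, with a chi-square per gene of 12.0 against 2.09 to 2.75 elsewhere. In these bulk samples, fewer cells of a type and less RNA per cell cannot be told apart.

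PTGES encodes microsomal prostaglandin E synthase-1, the inducible enzyme that makes prostaglandin E2. The NC libraries had 12.4 and 11.8 CPM of PTGES, and the PC libraries 60.6 and 57.8 CPM. Under RES it was at 21.9, 20.5 and 21.1 CPM, under POG at 7.46, 7.69 and 7.34 CPM, and under DEG at 9.07 and 9.80 CPM. No libraries of different groups overlapped, and the order of the groups from low to high was POG, DEG, NC, RES and PC. The count of PTGES reads was 336 or more in every library.

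With serum, PTGES was 4.89-fold higher than without it, a log2 fold change of 2.29 (SE 0.0675, FDR = 3.23e-260 by edgeR's exact test, adjusted over all genes tested). PTGES fell under DEG relative to negative controls, with a log2 fold change of -0.36 (SE 0.0821, FDR = 0.00106). That call was lost without NC replicate 1 (FDR = 0.0544) or DEG replicate 1 (FDR = 0.0796). The NC libraries used in both tests also took part in the choice of the set. As a description without a test, PTGES was 1.75-fold higher under RES than in negative controls (log2 difference 0.81) and 1.62-fold lower under POG (log2 difference -0.69). The POG mean was 2.83-fold below the RES mean. The DEG mean lay between those of POG and NC, at a log2 difference of 0.33 from POG and -1.17 from RES.

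Marker lists of other cell types followed the same order in part. The summed level of 3 epithelial markers was 214 to 216 CPM in NC, 262 to 286 in PC, 240 to 245 in RES, 181 to 188 in POG and 194 to 195 in DEG. Of these 3, only KRT8 averaged over 1 CPM, and EPCAM and CDH1 reached at most 0.545 and 0.269 CPM. None of 3 leukocyte markers averaged over 1 CPM, and their sum was 1.75 to 1.88 CPM in PC, 1.59 to 1.64 in RES, 1.16 to 1.29 in NC, 1.14 to 1.16 in DEG and 0.726 to 0.990 in POG. PTPRC, which defines leukocytes, was at most 0.156 CPM. The part of these markers in the PTGES result was not tested. Of 3 adipocyte markers, 0 averaged over 1 CPM (sums of 0.465 to 1.17 CPM over all libraries).

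**Figure D1:**
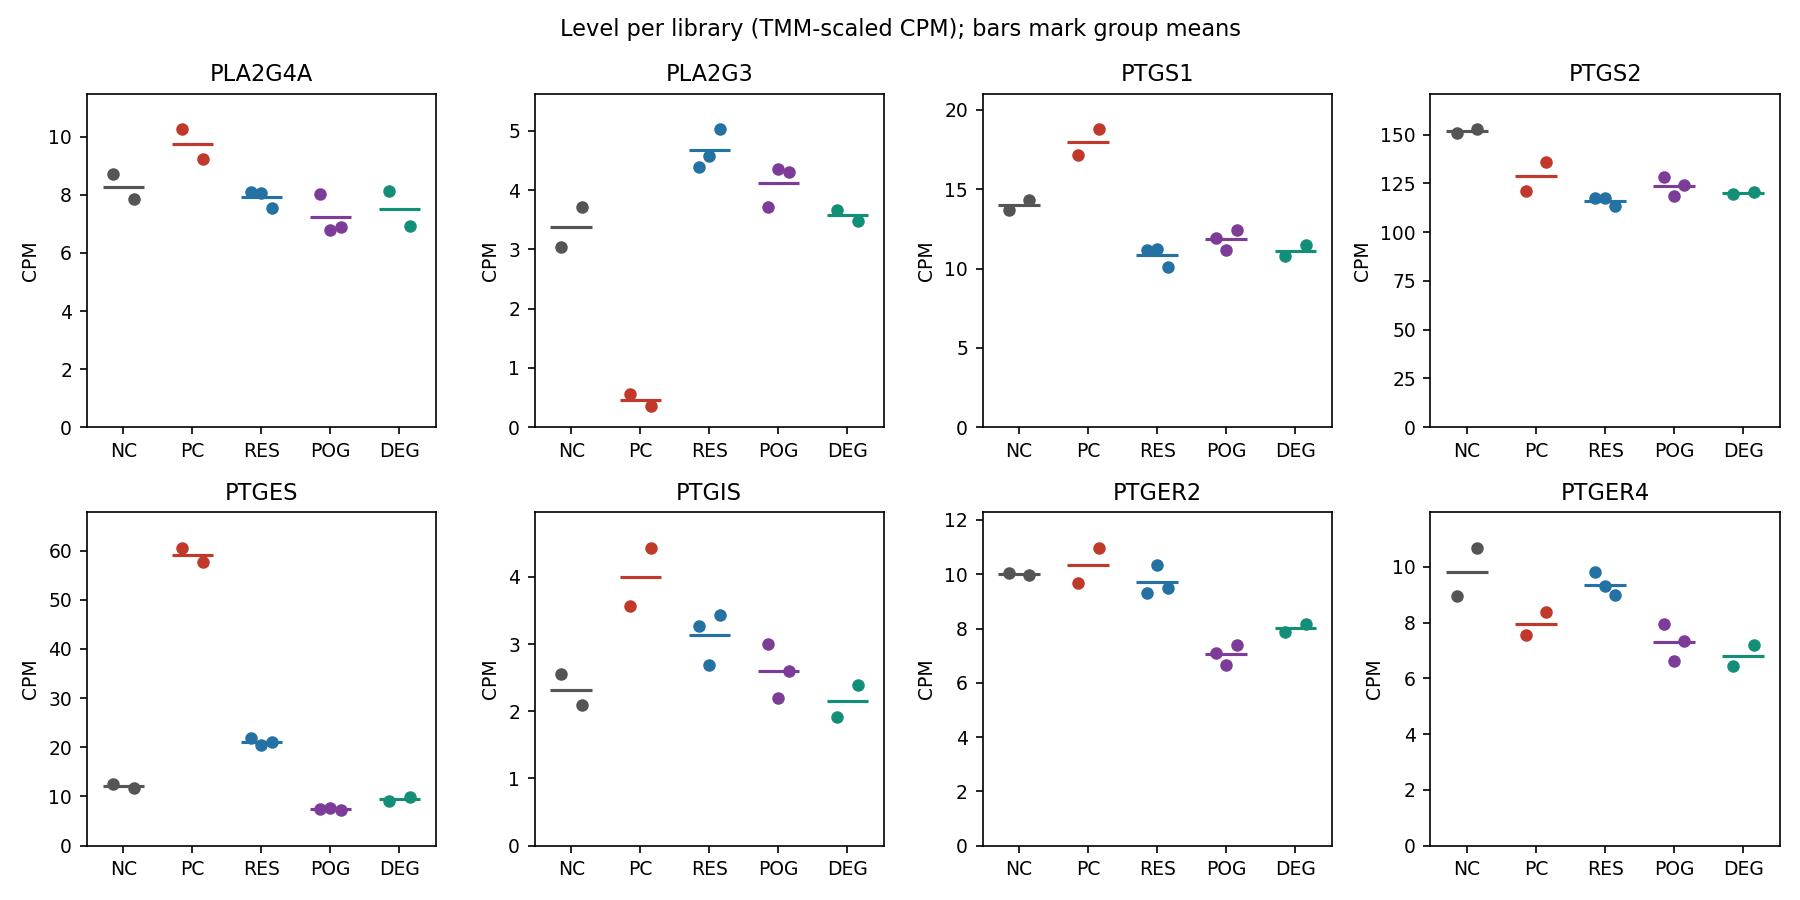
Level of each of the 8 members that passed the filter, in CPM, in each of the 12 libraries, by group. PTGES separates all 5 groups, from 7.34 CPM in a POG library to 60.6 CPM in a PC library, whereas every compound-treated library lies below both NC libraries for PTGS1 and PTGS2.

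The cyclooxygenase genes followed PTGES only in part. Neither rose under RES as PTGES did, and with serum PTGS1 rose but PTGS2 did not. Under POG and DEG both lay below NC, as PTGES did. PTGS2, the inducible cyclooxygenase, was at 150.8 and 152.8 CPM in the negative controls. It was at 118, 117 and 113 CPM under RES, at 128, 118 and 124 CPM under POG, and at 119.7 and 121 CPM under DEG. The positive controls were at 121 and 136 CPM. Both NC libraries thus stood above all other libraries, and the PC and POG libraries overlapped.

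PTGS2 fell in all 4 comparisons with negative controls, which share the NC libraries. Log2 fold changes were -0.39 for RES (SE 0.0405, FDR = 2.39e-16), -0.30 for POG (SE 0.0404, FDR = 5.79e-10), -0.34 for DEG (SE 0.0449, FDR = 3.47e-10) and -0.24 for PC (SE 0.0444, FDR = 3.3e-06). Without PC replicate 1 the PC value was -0.15, and it stayed past the threshold. With dispersions from the PC and NC libraries alone, the FDR of the PC value was 0.0025 in the exact test. PTGS2 shares 219 exon bases with PACERR, a long noncoding RNA on the opposite strand, and the strand setting of the counting was not given in the sources used here.

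PTGS1, the constitutive cyclooxygenase, was at 13.7 and 14.3 CPM in NC and reached 17.2 and 18.8 CPM in PC. The 8 compound-treated libraries lay between 10.1 and 12.5 CPM, below both NC libraries, with 11.1, 11.2 and 10.1 CPM under RES, 11.9, 11.2 and 12.5 CPM under POG and 10.8 and 11.5 CPM under DEG. PTGS1 thus rose with serum and was lower than in NC in each treated group. Its log2 fold change was 0.36 for PC (SE 0.0827, FDR = 8.47e-05), -0.37 for RES (SE 0.0796, FDR = 0.000169), -0.24 for POG (SE 0.0788, FDR = 0.0247) and -0.33 for DEG (SE 0.0888, FDR = 0.00535). The POG call was lost without NC replicate 1 (FDR = 0.0822), NC replicate 2 (FDR = 0.266), POG replicate 1 (FDR = 0.0588) or POG replicate 2 (FDR = 0.131), with DESeq2 (FDR = 0.0588) and without the filter on low counts (FDR = 0.0554). The DEG call was lost without NC replicate 2 (FDR = 0.115) or DEG replicate 1 (FDR = 0.148).

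**Figure D2:**
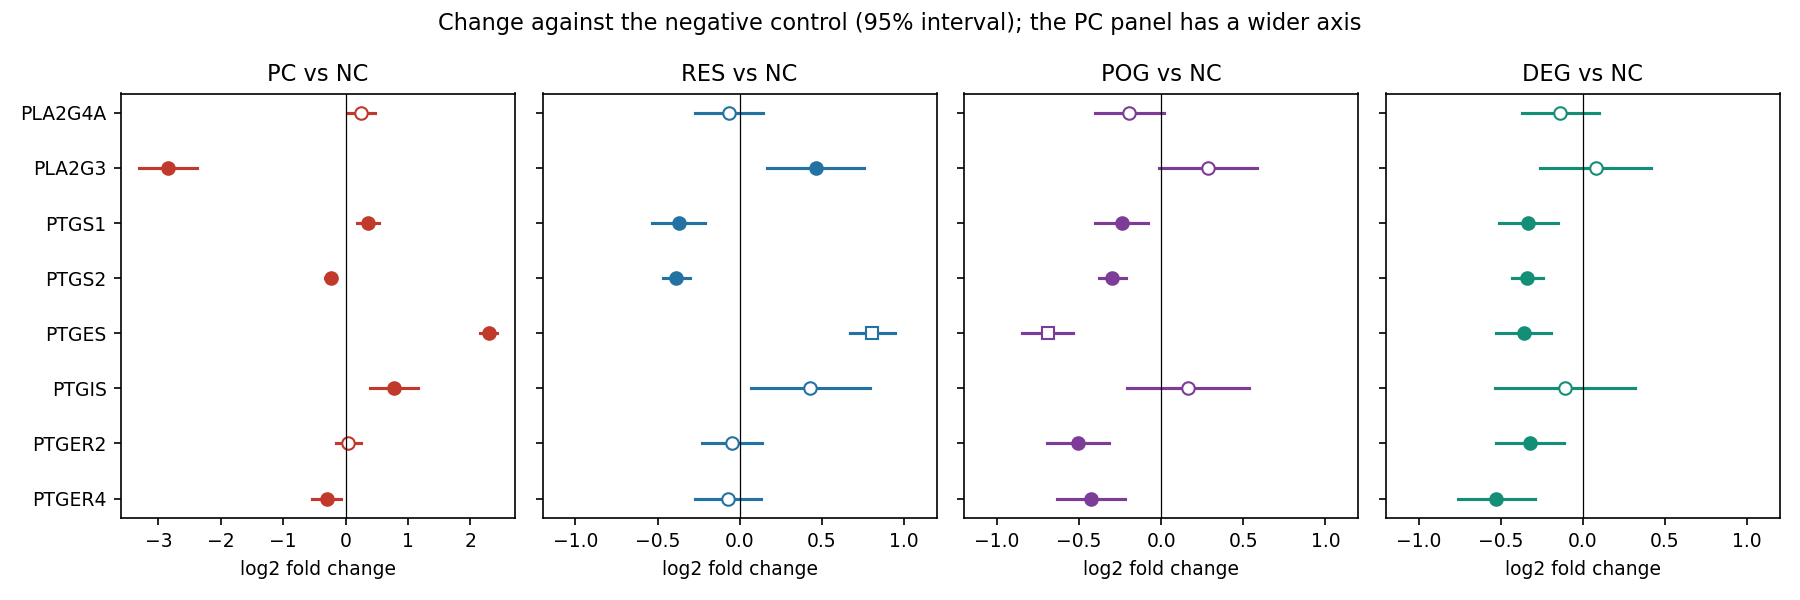
Log2 fold change of each of the 8 members against negative controls in the PC, RES, POG and DEG groups, with its 95% interval; filled points passed an FDR of 0.05, open circles did not, and open squares mark PTGES where it is described without a test. PTGS2 and PTGER4 lie below 0 in all 4 panels, though the PTGER4 interval under RES spans 0. The PTGER2 interval lies wholly below 0 only under POG and DEG. The PC panel has a wider axis because of PTGES at 2.29 and PLA2G3 at -2.85.

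Of the phospholipases, the secreted enzyme gene PLA2G3 had the largest change of any tested member, by absolute log2 fold change. Without serum it was at 3.05 and 3.72 CPM in NC, and with serum at 0.567 and 0.356 CPM, from 28 and 15 reads. Under RES it was at 4.397, 4.58 and 5.03 CPM, under POG at 3.71, 4.35 and 4.30 CPM and under DEG at 3.67 and 3.49 CPM. All RES libraries were above both NC libraries, whereas POG and DEG overlapped with NC.

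PLA2G3 was 7.19-fold lower with serum, with a log2 fold change of -2.85 (SE 0.228, FDR = 1.33e-34). It rose under RES, with a log2 fold change of 0.46 (SE 0.144, FDR = 0.0135), a call that was lost without NC replicate 1 (FDR = 0.353) or RES replicate 3 (FDR = 0.0794) and with DESeq2 (FDR = 0.0512). The POG and DEG values were 0.28 (FDR = 0.189) and 0.08 (FDR = 0.874).

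PLA2G4A encodes cytosolic phospholipase A2 alpha, the enzyme that most directly feeds the cyclooxygenases. It varied little, at 8.70 and 7.84 CPM in NC, 10.3 and 9.25 CPM in PC, 8.10, 8.07 and 7.56 CPM in RES, 8.01, 6.78 and 6.91 CPM in POG and 8.14 and 6.92 CPM in DEG. Only the PC libraries did not overlap with the NC libraries. PLA2G4A passed the threshold in no comparison, with log2 values against NC of 0.24 for PC (FDR = 0.066), -0.06 for RES (FDR = 0.796), -0.19 for POG (FDR = 0.221) and -0.14 for DEG (FDR = 0.568). Without PC replicate 2 the PC value was 0.32 and passed (FDR = 0.0247).

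PTGIS encodes prostacyclin synthase. It was at 2.56 and 2.09 CPM in NC, 3.56 and 4.43 CPM in PC, 3.28, 2.68 and 3.43 CPM in RES, 2.997, 2.20 and 2.60 CPM in POG and 1.91 and 2.39 CPM in DEG. The PC libraries were the highest, and the groups from DEG to RES overlapped with their neighbours in the order of means. RES and NC were not neighbours in that order, and all RES libraries were above both NC libraries. PTGIS rose with serum, with a log2 fold change of 0.78 (SE 0.187, FDR = 0.000143). Against NC it did not pass under RES (0.43, FDR = 0.106), POG (0.16, FDR = 0.67) or DEG (-0.11, FDR = 0.85).

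PTGER2 encodes the EP2 receptor. It was at 10.05 and 9.98 CPM in NC, 9.67 and 10.98 CPM in PC, and 9.31, 10.3 and 9.49 CPM under RES. Under POG it was at 7.10, 6.67 and 7.40 CPM and under DEG at 7.88 and 8.17 CPM. The POG and DEG libraries lay below every NC, PC and RES library, and did not overlap with each other. The summed level of 3 endothelial markers, of which only PECAM1 averaged over 1 CPM and CDH5 reached at most 0.112 CPM, split the same way, at 1.33 to 2.18 CPM in POG and 2.09 to 2.30 in DEG against 2.89 to 2.97 in NC, 2.99 in both PC libraries and 2.92 to 3.25 in RES. Their part in the PTGER2 result was not tested. The log2 fold change against NC was -0.50 for POG (SE 0.0923, FDR = 2.66e-06) and -0.32 for DEG (SE 0.102, FDR = 0.0266). The DEG call was lost when any 1 of its 4 libraries was left out, with an FDR of 0.152 without NC replicate 1, 0.139 without NC replicate 2, 0.226 without DEG replicate 1 and 0.111 without DEG replicate 2. It was also lost with DESeq2 (FDR = 0.0655) and without the filter (FDR = 0.0568). For RES the value was -0.04 (95% interval -0.23 to 0.14, FDR = 0.855), and for PC it was 0.04 (95% interval -0.16 to 0.24, FDR = 0.791).

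PTGER4 encodes the EP4 receptor. It was at 8.96 and 10.7 CPM in NC, 7.55 and 8.37 CPM in PC, 9.83, 9.30 and 8.97 CPM in RES, 7.95, 6.62 and 7.34 CPM in POG and 6.43 and 7.20 CPM in DEG. The RES libraries lay within the NC range, and the PC, POG and DEG libraries all lay below it. PTGER4 fell under POG, with a log2 fold change of -0.43 (SE 0.101, FDR = 0.000497), under DEG, with -0.53 (SE 0.115, FDR = 0.000183), and with serum, with -0.31 (SE 0.110, FDR = 0.0169). The RES value was -0.07 (95% interval -0.27 to 0.13, FDR = 0.764). Without NC replicate 2, the higher of the NC libraries, the FDR was 0.158 for POG, 0.0724 for DEG and 0.38 for PC. The PC call was also lost without PC replicate 1 (FDR = 0.18).

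PTGER3, which encodes the EP3 receptor, and HPGD, which encodes 15-hydroxyprostaglandin dehydrogenase, were too low to test. PTGER3 had no read in either NC library, which allows up to 0.0382 CPM over that group by the one-sided limit of 3 reads and up to 0.0470 CPM by the two-sided exact Poisson 95% interval, for counting error alone. It had 1 read each in PC and DEG, 3 reads over the RES libraries and 6 over the POG libraries (0.0442 CPM, exact Poisson 95% interval 0.0162 to 0.0963). HPGD had 6 reads over the RES libraries (0.0448 CPM, 0.0164 to 0.0975), 2 in PC and none in NC, POG or DEG, whose upper ends of the same interval were 0.0470, 0.0272 and 0.0473 CPM. No difference was detectable at this depth for either gene. HPGD also shares 314 exon bases with a long noncoding RNA on the opposite strand.

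Counted over the members, 6 of the 8 tested passed an FDR of 0.05 between PC and NC, with 3 higher and 3 lower, where 42.4% of all genes tested passed (21.4% higher, 20.9% lower). For RES against NC, 3 of 7 tested members passed, with 1 higher and 2 lower, against 11.2% of all genes (4.94% higher, 6.21% lower). For POG against NC, 4 of 7 passed, all lower, against 14.5% of all genes (5.93% higher, 8.57% lower). For DEG against NC, 5 of 8 passed, all lower, against 9.63% of all genes (3.52% higher, 6.11% lower). The PC and DEG counts include PTGES, on which the set was chosen, and the RES and POG counts leave it out. Because the members were chosen with earlier results of these data known, these counts and the medians below only describe the set. Scaling by plain library totals moved the split of all genes called towards lower for PC, from 3665 higher of 7245 to 3039 of 7404, and towards higher for the compounds, from 844 of 1906 to 1236 of 1930 for RES, from 1014 of 2478 to 1498 of 2677 for POG and from 602 of 1646 to 843 of 1711 for DEG, but it took none of the members' calls away. The median log2 fold change of the tested members was 0.14 for PC, -0.06 for RES, -0.24 for POG and -0.33 for DEG, whereas that of all genes tested was within 0.01 of 0 in each.

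Levels of different genes were compared per kilobase of annotated exon, a scale that rests on the GENCODE exon lengths. PTGS2 averaged 27.7 CPM per kilobase in NC and PTGES 6.40. With serum, PTGES at 31.3 CPM per kilobase exceeded PTGS2 at 23.5. The ratio of PTGES to PTGS2 on this scale was 0.231 in NC, 1.33 in PC, 0.529 in RES, 0.176 in POG and 0.228 in DEG. In contrast, the ratio of PTGS2 to PTGS1 was between 10.99 and 11.4 in NC, RES, POG and DEG and 7.55 in PC. Over all libraries the order of the tested members from high to low was PTGS2 (23.1 CPM per kilobase), PTGES (10.9), PTGER2 (3.62), PLA2G4A (2.79), PTGER4 (2.33), PTGS1 (2.22), PLA2G3 (1.32) and PTGIS (0.511).

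**Figure D3:**
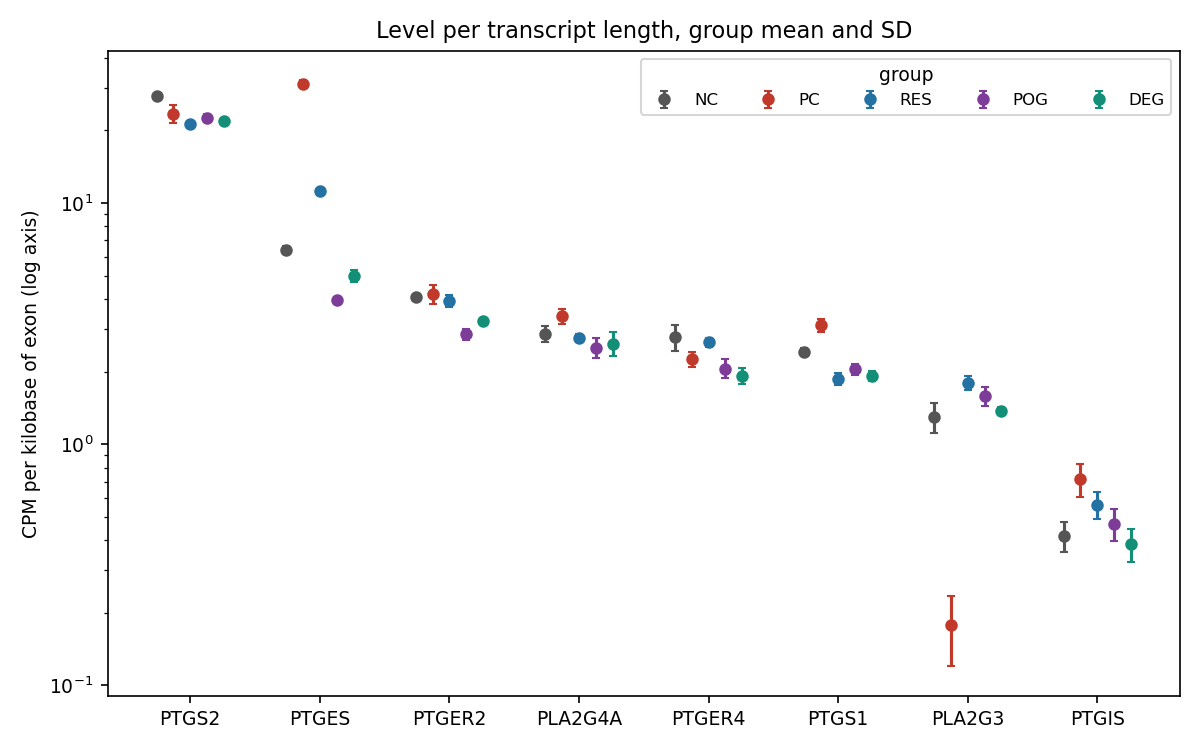
Mean level of the 8 members in each group, in CPM per kilobase of annotated exon on a log axis, with bars for the SD over the 2 or 3 libraries of a group. PTGS2 is the highest member in all groups but PC, where PTGES at 31.3 CPM per kilobase lies above PTGS2 at 23.5.

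The compounds were next compared with each other at the same labelled concentration by mass, 1 mcg/ml, so their molar doses need not be equal. Between POG and RES, 2 of 7 tested members passed, both lower under POG, where 27.9% of all genes passed (13.7% higher, 14.1% lower). These were the receptor genes PTGER2, with a log2 fold change of -0.46 (SE 0.0820, FDR = 5.21e-07), and PTGER4, with -0.36 (SE 0.0901, FDR = 0.000586), and neither call was lost when any 1 library was left out. PTGS2 differed by 0.09 (95% interval 0.01 to 0.16, FDR = 0.0754) and passed without POG replicate 2 (0.12, FDR = 0.0338) or with dispersions from these groups alone (FDR = 0.00374). The other values were 0.13 for PTGS1 (FDR = 0.179), -0.13 for PLA2G4A (FDR = 0.321), -0.18 for PLA2G3 (FDR = 0.276) and -0.27 for PTGIS (FDR = 0.188).

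Between DEG and RES, 4 of 7 tested members passed, all lower under DEG, against 21.2% of all genes (10.3% higher, 10.8% lower). PTGER4 had a log2 fold change of -0.46 (SE 0.105, FDR = 0.000195) and kept its call without any 1 library. PTGER2, at -0.27 (SE 0.0927, FDR = 0.0207), lost its call without RES replicate 2 (FDR = 0.112), DEG replicate 1 (FDR = 0.187) or DEG replicate 2 (FDR = 0.0923) and with DESeq2 (FDR = 0.0547). PTGIS, at -0.54 (SE 0.181, FDR = 0.0171), lost it without RES replicate 1 (FDR = 0.0598), RES replicate 3 (FDR = 0.0864) or DEG replicate 1 (FDR = 0.322). PLA2G3, at -0.38 (SE 0.143, FDR = 0.0335), lost it without RES replicate 2 (FDR = 0.0576), RES replicate 3 (FDR = 0.134), DEG replicate 1 (FDR = 0.133) or DEG replicate 2 (FDR = 0.241). The PLA2G3 call was also lost with the quasi-likelihood test (FDR = 0.0582), DESeq2 (FDR = 0.0902) and no filter (FDR = 0.0554). The cyclooxygenase genes differed by 0.04 for PTGS1 (95% interval -0.13 to 0.21) and 0.05 for PTGS2 (95% interval -0.04 to 0.13).

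Between DEG and POG, none of the 7 tested members passed with edgeR's exact or quasi-likelihood test, none passed with DESeq2, which gave no adjusted p for PLA2G3 and PTGIS, none had an unadjusted p under 0.05 in the exact test, and 1.05% of all genes passed (0.55% higher, 0.497% lower). PTGER2 differed by 0.18 (95% interval -0.01 to 0.38, FDR = 0.505), PTGER4 by -0.10 (95% interval -0.32 to 0.12) and PTGS2 by -0.04 (95% interval -0.12 to 0.04). The interval of PTGER2 reaches differences as large as those seen against negative controls under DEG, so these data do not show that the groups were alike.

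The rest of the pathway was followed in 7 lists of 61 further genes, of which 50 passed the filter. Of these 50, 26 passed between PC and NC (14 higher, 12 lower), 14 between RES and NC (5 higher, 9 lower), 14 between POG and NC (4 higher, 10 lower) and 12 between DEG and NC (3 higher, 9 lower). Over all genes tested, the shares were 42.4% for PC (21.4% higher, 20.9% lower), 11.2% for RES (4.94% higher, 6.21% lower), 14.5% for POG (5.93% higher, 8.57% lower) and 9.63% for DEG (3.52% higher, 6.11% lower). The single lists below are small and are counted against these shares, with no test of a list. Their median log2 fold change was under 0.01 in size for PC, -0.01 for RES, -0.01 for POG and -0.07 for DEG.

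Among the 7 other terminal synthases and reductases that passed the filter, 4 rose with serum, 4 fell under RES, and 1 fell under each of POG and DEG, where 21.4% of all genes were called higher with serum and 6.21% lower under RES. Of the 4 RES calls, that of TBXAS1, thromboxane synthase (-0.47, FDR = 0.0427), was lost when any 1 of its 5 libraries was left out (FDR of 0.0587 to 0.233) and with DESeq2 (FDR = 0.0999). AKR1B1, an aldo-keto reductase that can make prostaglandin F2 alpha, was at 200 to 206 CPM in NC, 241 to 255 in PC, 147 to 152 in RES, 130 to 135 in POG and 142 to 143 in DEG. AKR1B1 therefore rose with serum (log2 fold change 0.29, FDR = 2.9e-12) and fell under RES (-0.43, FDR = 2.59e-29), POG (-0.62, FDR = 4.69e-61) and DEG (-0.51, FDR = 8.21e-33), with POG below RES (-0.19, FDR = 3.69e-07). PTGES3, of the same list, averaged 258 CPM in NC, 297 in PC, 233 in RES, 273 in POG and 272 in DEG. It was higher under POG than under RES (0.23, FDR = 5.5e-13), and higher under DEG than under RES (0.22, FDR = 1.63e-09). Its fall under RES against NC (-0.15, FDR = 0.000317) lies outside the naming rule. PTGES2, a constitutive prostaglandin E synthase, rose with serum (0.33, FDR = 1.33e-08) and was called lower under RES (-0.17, FDR = 0.0149). The RES call of PTGES2 was lost without NC replicate 1 (FDR = 0.305), RES replicate 1 (FDR = 0.074) or RES replicate 3 (FDR = 0.0718), with plain library totals (FDR = 0.0518) and without the filter (FDR = 0.0501).

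Of the 10 phospholipase and lipase genes tested, 4 passed for PC (3 higher, 1 lower), 2 for RES (both higher) and 2 each for POG and DEG (1 higher, 1 lower). The PC count is near the 42.4% of all genes called there. Of the RES calls, that of PLAAT3, a phospholipase and acyltransferase (0.18, FDR = 0.0252), was lost when any 1 of its 5 libraries was left out (FDR of 0.0618 to 0.342). MGLL, which frees arachidonic acid from monoacylglycerol, was at 182 CPM in both NC libraries, 236 to 238 in PC and 157 to 160 in POG. It rose with serum (0.38, FDR = 1.38e-23) and fell under POG (-0.20, FDR = 2.34e-07). MGLL was also called lower under DEG, at 163 to 167 CPM (-0.14, FDR = 0.00688). That DEG call was lost in 3 of 4 fits without 1 library, with values from -0.15 to -0.12. PLA2G4C, a cytosolic phospholipase A2, had log2 values of 0.69 under RES (FDR = 0.000645), 0.49 under POG (FDR = 0.03) and 0.63 under DEG (FDR = 0.00849). All 3 calls were lost without NC replicate 1, with an FDR of 0.143, 0.45 and 0.286. The POG call was lost as well without POG replicate 2 (FDR = 0.0619) or POG replicate 3 (FDR = 0.118), with the quasi-likelihood test (FDR = 0.0502) and with DESeq2 (FDR = 0.0679), and the DEG call without DEG replicate 1 (FDR = 0.258).

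The 5 other prostanoid receptor genes tested gave 1 call with serum and none for RES, POG or DEG against NC. PTGIR, the prostacyclin receptor, fell with serum from 17.2 to 17.7 CPM in NC to 12.3 to 13.2 CPM in PC (log2 fold change -0.45, FDR = 5.72e-08). It was 14.6 to 15.5 CPM under DEG and 18.4 to 19.4 CPM under RES (DEG against RES -0.34, FDR = 2.31e-05). Of the 6 transport and breakdown genes, only PTGR1, a reductase that acts on oxidised prostaglandins, passed in a comparison with NC, at 0.30 with serum (FDR = 1.57e-09). In the leukotriene list of 8 genes, 4 passed the filter. The call with serum and 1 of the 2 calls under RES were of genes under 1 CPM in every library. In all, 1 gene rose with serum and 2 under RES. Of those, MGST2, a glutathione transferase that can form leukotriene C4, rose under RES by 0.38 (FDR = 0.00831), a call lost without NC replicate 1 (FDR = 0.0531), NC replicate 2 (FDR = 0.181) or RES replicate 1 (FDR = 0.089).

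Genes that respond to cyclic AMP lie downstream of EP2 and EP4, among many other inputs. Of 7 such genes, 6 fell with serum and none rose, 1 rose and 1 fell under RES, and 3 fell under each of POG and DEG, where 20.9%, 8.57% and 6.11% of all genes were called lower with serum, under POG and under DEG. NR4A2, an orphan nuclear receptor, was at 50.2 to 52.5 CPM in NC, 21.3 to 24.1 in PC, 38.1 to 40.0 in RES, 38.0 to 40.9 in POG and 40.05 to 40.4 in DEG. It fell in all 4 comparisons with NC, by 1.18 on the log2 scale with serum (FDR = 7.26e-86), by 0.39 under RES (FDR = 6.09e-12), by 0.37 under POG (FDR = 4.45e-11) and by 0.35 under DEG (FDR = 6.74e-08). PDE4D, a phosphodiesterase that breaks down cyclic AMP, fell under POG (-0.20, FDR = 0.000227) and DEG (-0.27, FDR = 6.61e-06). It fell with serum as well (-0.41, FDR = 2.31e-14), a value outside the naming rule.

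Of 11 inducers and regulators of PTGS2 and PTGES that passed the filter, 9 passed for PC (5 higher, 4 lower), 4 for RES (all lower), 8 for POG (3 higher, 5 lower) and 6 for DEG (2 higher, 4 lower), against 42.4%, 11.2%, 14.5% and 9.63% of all genes. IL1A rose with serum (log2 fold change 2.33, FDR = 6.26e-158). It was also called higher under POG (0.25, FDR = 0.0449), a call lost in 4 of 5 fits without 1 library. IL1B, a cytokine that induces both genes, was at 317 CPM in both NC libraries and 939 to 997 CPM in PC (log2 fold change 1.61). Outside the naming rule, IL1B was lower under POG (-0.23, FDR = 6.49e-09) and DEG (-0.22, FDR = 1.2e-06) and did not pass under RES (-0.03, FDR = 0.687). IL1R1, its receptor, was at 167 to 171 CPM in NC, 95.7 to 96.9 in PC, 149 to 150.2 in RES, 109 to 113 in POG and 115 to 116 in DEG. It fell in each comparison with NC, with a log2 fold change of -0.81 for PC (FDR = 2.19e-92), -0.18 for RES (FDR = 2.16e-05), -0.61 for POG (FDR = 7.33e-63) and -0.55 for DEG (FDR = 1.23e-41). EGR1, an immediate early transcription factor, was at 94.8 to 96.8 CPM in NC, 80.0 to 84.7 in RES, 155 to 161 in POG and 124 to 133 in DEG. EGR1 fell under RES (-0.23, FDR = 4.48e-06), rose under POG (0.71, FDR = 4.23e-64) and rose under DEG (0.42, FDR = 2.48e-18). With serum it was at 86.9 to 87.1 CPM (-0.14, FDR = 0.00708), a value outside the naming rule that was added after it had been seen.

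**Figure D4:**
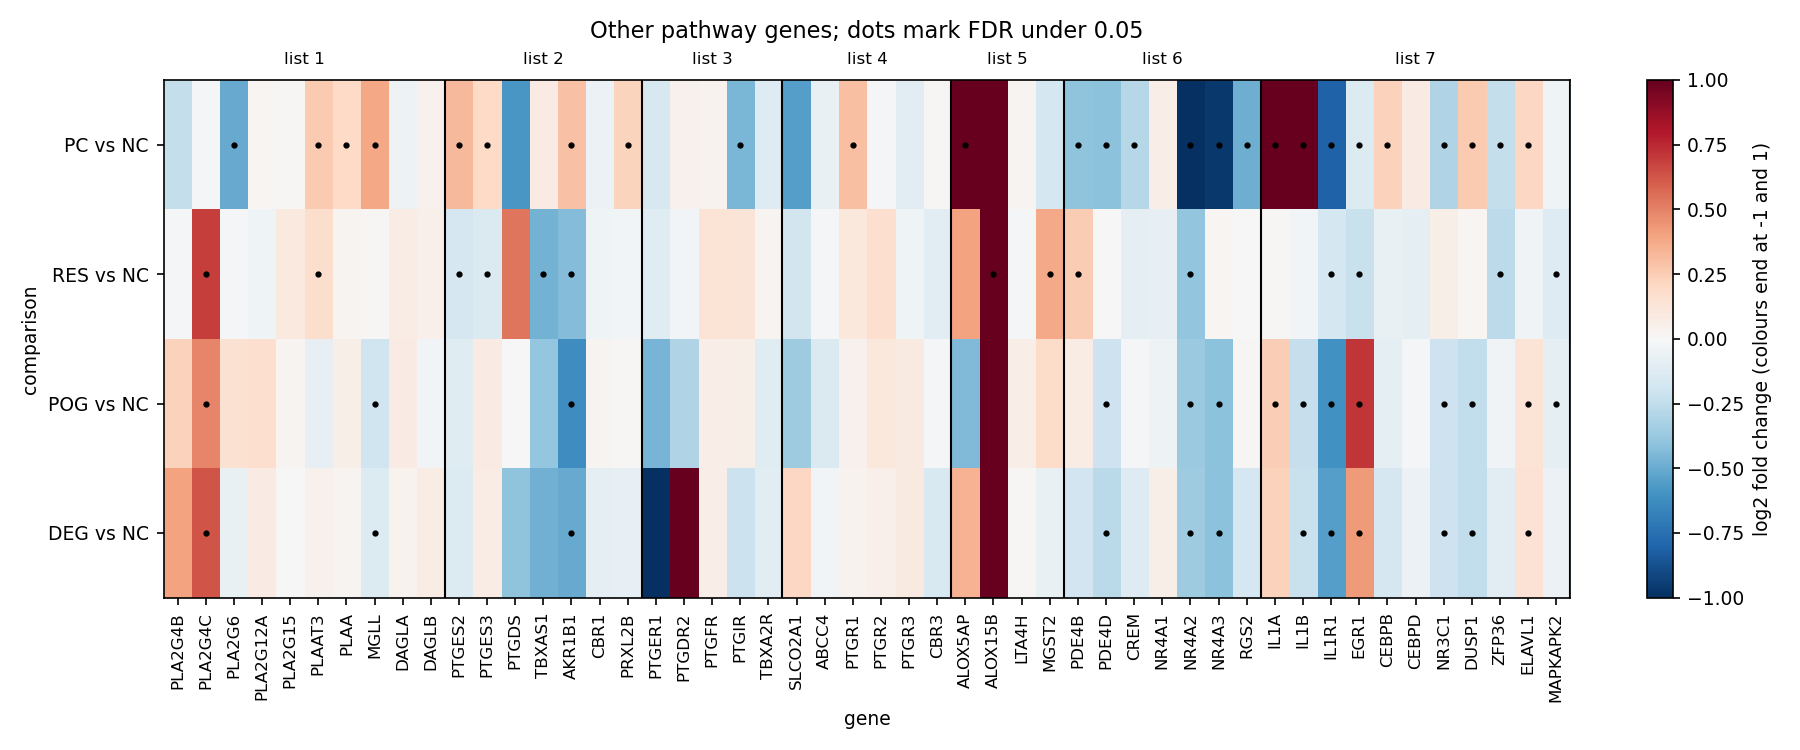
Log2 fold changes of the 50 pathway genes that passed the filter (columns) in the 4 comparisons with negative controls (rows), with dots where the FDR was under 0.05, colours ending at 1 and -1, and genes ordered by list, namely 1 phospholipases and lipases, 2 terminal synthases and reductases, 3 receptors, 4 transport and breakdown, 5 leukotrienes, 6 cyclic AMP response and 7 inducers and regulators. AKR1B1 is positive for PC and negative for the 3 compounds, EGR1 is positive for POG and DEG and negative for PC and RES, and NR4A2 and IL1R1 are negative in all 4 rows.

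The genes whose levels were most like those of PTGES were sought by Pearson correlation of log2 CPM over the 12 libraries among 13398 genes, as a description without a test. The libraries fall into 5 groups and share their scaling, so these values mostly follow the group means. ANXA1, a phospholipid-binding annexin, came first (r = 0.995), followed by TGM2, a transglutaminase (0.994), HIC1, a transcriptional repressor (0.994), RFTN1, a lipid raft protein (0.992), and TFPI2, a serine protease inhibitor (0.990). ANXA1 averaged 67.2 CPM in NC, 119 in PC, 83.0 in RES, 54.3 in POG and 61.8 in DEG. The means of TGM2 were 79.0, 173, 107, 57.0 and 63.4 CPM in the same order of groups. Both genes had their group means in the order seen for PTGES, which their choice by correlation with PTGES made likely.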

How the data were processed

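Poly-A RNA of 12 libraries was analysed. The authors deposited raw read counts per gene, not normalized. Per the study's methods and processing notes, reads were aligned to hg38 with STAR (BWA MEM was also named) and counted with featureCounts. The versions, annotation release, strand setting and handling of multi-mapped reads were not given in the sources used here, so overlapping or near-identical genes carry uncertain counts.

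Identifiers were matched to gene symbols (43214 of 43836), and coordinates and exon lengths came from GENCODE v44 on hg38. The members and gene lists were chosen with earlier results of these data known. After edgeR's filterByExpr was applied with the groups, 17092 genes with 99.967% of reads remained. Counts were scaled by TMM in edgeR 4.0.16 (R 4.3.3) and compared with the exact test that the study names, using dispersions from all 12 libraries (common biological coefficient of variation 3.21%) and Benjamini-Hochberg adjustment over all genes tested, with a threshold of 0.05. Standard errors and 95% intervals came from the quasi-likelihood fit. PTGES was not tested in the 5 comparisons with RES or POG libraries. The scripts were tested on simulated data.

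All 10 members were named. From each pathway list and comparison, at most 3 called genes with the largest log2 fold change and at least 1 CPM could be named, and the 5 genes most like PTGES were named. Replicate numbers follow accession order and are names only. Alternatives were the quasi-likelihood test, DESeq2 1.42.0, its size factors, plain library totals, no filter, dispersions from the groups compared, and leaving out each library. Applying them to the pathway lists was added after the data had been seen. Intervals from counts and floors of 3 reads cover counting error only.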

Additional observations from a re-analysis of the deposited data

Results flagged for a closer look

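In 6 results, the response of a member to one compound differed from its response to another, by a direct test of the difference between the treated groups. For POG against RES these were 2 of 7 tested members, near the 27.9% of all genes that passed. For DEG against RES they were 4 of 7, where 21.2% of all genes passed. PTGER2 was lower under POG than under RES by a log2 fold change of -0.46 (FDR = 5.21e-07), and PTGER4 by -0.36 (FDR = 0.000586). Relative to RES, DEG was lower for PTGER4 by -0.46 (FDR = 0.000195), for PTGER2 by -0.27 (FDR = 0.0207), for PTGIS by -0.54 (FDR = 0.0171) and for PLA2G3 by -0.38 (FDR = 0.0335). The first 3 kept their calls without any 1 library, and the last 3 each lost them without at least 1. No group had the 4 libraries needed to look for a single library that stands apart.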

How the results depend on the processing

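Of 24 member calls, 13 held under every alternative and 11 were lost under at least 1. The number of members called between DEG and RES fell from 4 to 2 with DESeq2. Leaving out 1 library gave 5 to 7 members called for PC (6 with all libraries), 2 to 3 for RES (3), 2 to 4 for POG (4), 2 to 4 for DEG (5), 2 to 3 for POG against RES (2), 1 to 3 for DEG against RES (4) and 0 for DEG against POG (0). The cause of these shifts was not tested. The sign turned for 8 member values, none of them past the threshold. PTGER2 for PC was -0.0022 with plain library totals. Without 1 library, PTGER2 for PC ran from -0.042 to 0.14, PLA2G4A for RES from -0.13 to 0.011, PTGER4 for RES from -0.19 to 0.067, PLA2G3 for DEG from -0.057 to 0.23, PTGIS for DEG from -0.28 to 0.044, PLA2G4A for DEG against RES from -0.19 to 0.041, PTGS1 for DEG against RES from -0.0067 to 0.085, and PLA2G4A for DEG against POG from -0.064 to 0.17.

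Over all genes, dispersions from the groups compared raised the calls for DEG against NC from 1646 to 2573 and for DEG against POG from 179 to 838, while the latter was 103 with the quasi-likelihood test, 116 without the filter and from 32 to 100 without 1 library. Pathway list calls for RES were 14, and 6 to 11 without 1 library. For DEG against POG they were 3, with 1 under the quasi-likelihood test, 5 with dispersions from the groups compared and 1 to 3 without 1 library. For PC against NC, in contrast, dispersions from the groups compared lowered the calls over all genes from 7245 to 5926. No paired analysis was possible because the labels give no replicate numbers. Without 1 NC library, the calls over all genes were 881 and 937 for RES (1906 with both), 1362 and 1364 for POG (2478) and 895 and 931 for DEG (1646). Without 1 DEG library, they were 850 and 894 for DEG against NC and 2068 and 2208 for DEG against RES (3616). With 2 or 3 libraries a group, small differences in members under 10 CPM rest on 507 reads or fewer a library.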
